A study of Mus musculus with 221 samples.

Results

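The zinc-finger repressors GFI1 and GFI1B and 4 subunits of the LSD1-CoREST complex, encoded by Kdm1a, Rcor1, Hdac1 and Hdac2, were followed through 3 hemogenic endothelium (HE) populations of the mouse embryo and the blood progenitors that they lead to. The 6 genes were taken by their symbols, which 30 of 278369 annotated transcripts and 6 of 78001 gene names carried. Amplified cDNA of 221 single cells had been read in full length on a nanopore instrument, and the 208 cells with at least 17595 estimated counts were kept. HE-AGM (29 cells of an early and 20 of a late cluster) came from the aorta-gonad-mesonephros (AGM) region, for which the methods name E9.5 and E10.5. HE-Hb (21 cells), an abbreviation that the sources used here do not spell out, carried AGM_5 in its sample titles and mouse embryo without a region as its tissue. The study's AGM cluster c5 was that of the intra-aortic hematopoietic clusters, and the link to AGM_5 is by its number. HE-YSA (23 early and 29 late cells), which the study placed in the arteries of the yolk sac, and HE-YSP (25 early and 24 late cells), which it placed in the vascular plexus, came from yolk sacs of E9.0, E9.5 and E10.5. The early progenitors were also from yolk sac, with 17 cells skewed to a lymphomyeloid fate (LMP, 2 of E9.5 and 15 of E10.5) and 20 to an erythromyeloid fate (EMP, 5 of E9.0, 9 of E9.5 and 6 of E10.5). Embryos came from GFI1-GFP and RUNX1B-RFP reporter mice (C57BL/6JOlaHsd) bred with wild-type CD-1 females, and the reporters were genotyped as knock-in alleles. AGM HE had been gated as CDH5+ and KIT-, yolk sac HE as CD31+ and KIT+, and both as RUNX1+ without CD41 or CD45, with cells positive or negative for the GFI1 reporter. Whether RNA of the reporter allele enters the Gfi1 counts is not given in the sources used here.

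GFI1 and GFI1B bind the same DNA sites through their zinc fingers and recruit the demethylase LSD1, the product of Kdm1a, through a short N-terminal SNAG domain. CoREST, the product of Rcor1, is the scaffold that joins LSD1 to the histone deacetylases HDAC1 and HDAC2, and the assembled complex removes active marks from nearby chromatin. In the embryo GFI1 and GFI1B are known for shutting down endothelial genes while HE turns into blood, and GFI1B is also known as a regulator of the erythroid and megakaryocytic lineages.

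The promoters of both factors are shown because GFI1 and GFI1B recognise sites built around the core AATC (GATT on the other strand), and because the transcripts of the 2 genes took opposite courses in these cells. The sequences below are the 250 bases before the annotated start on the minus strand (RefSeq, GRCm38.p6), 5′ to 3′, for Gfi1 at chr5:107725806-107726055 and for Gfi1b at chr2:28621983-28622232, with each core in capitals.
Gfi1: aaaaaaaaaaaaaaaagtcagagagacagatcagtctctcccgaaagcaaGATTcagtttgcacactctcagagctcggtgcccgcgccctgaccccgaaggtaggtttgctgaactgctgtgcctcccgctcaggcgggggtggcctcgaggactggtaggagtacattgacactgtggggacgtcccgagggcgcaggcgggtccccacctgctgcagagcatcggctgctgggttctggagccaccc
Gfi1b: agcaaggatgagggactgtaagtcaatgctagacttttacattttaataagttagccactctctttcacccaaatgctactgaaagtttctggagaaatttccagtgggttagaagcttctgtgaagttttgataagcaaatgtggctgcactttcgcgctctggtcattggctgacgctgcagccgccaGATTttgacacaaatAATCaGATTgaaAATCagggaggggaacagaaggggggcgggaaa
The Gfi1b stretch held 4 cores within 31 bases, between 60 and 30 bases before the annotated start, and that of Gfi1 held 1. Gfi1 has another annotated start, that of Gfi1-201, whose window (chr5:107724294-107724593) held none. In windows from 250 bases before to 50 bases after the start, 73.1% of 32851 promoters held at least 1 core on either strand and 10.1% held at least 4. The Gfi1b window also held 1 GATAAG on either strand, as did 7.44% of all windows. Neither window held the RUNX motif TGTGGT on either strand, which 16.8% of all windows did. These matches are letters in a window and say nothing of binding.

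Each cluster counted as 1 sample, since every sequenced sample was 1 cell and no embryo was named, so no test was made and no error between embryos could be given. Levels are CPM, the summed counts scaled to a total of 1000000, with an exact 95% Poisson interval, shares carry an exact 95% Clopper-Pearson interval, and log2 ratios of CPM an exact conditional binomial interval. The reads were PCR copies without molecular identifiers, so these intervals cover counting error only. The clusters had been drawn by the study on short-read libraries of the same cDNA, and differences between them are therefore descriptions. The totals of the kept cells ran from 18131 to 125339 counts, with medians of 59311 in HE-AGM, 59726 in HE-Hb, 34483.5 in HE-YSA, 33297 in HE-YSP, 30858 in LMP-skewed and 36709.5 in EMP-skewed progenitors. HE-AGM and HE-Hb cells came from cDNA projects that held only 1 yolk sac cell between them, so AGM against yolk sac and project cannot be told apart. Of the yolk sac cells, 3 carried another region or project in their library name, 2 of them AGM, and leaving them out kept each of the 59 log2 ratios of the members inside its interval.

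Lists of marker genes were read beside the labels. HE cells had been gated on CDH5 in the AGM and on CD31 in the yolk sac, both without CD45. The clusters were drawn on the same cDNA, so these levels describe the labels and do not test them. The endothelial list of 10 genes summed to 1998, 1813 and 1867 CPM in HE-AGM, HE-YSA and HE-YSP and to 448, 794 and 486 CPM in HE-Hb, LMP-skewed and EMP-skewed progenitors. Cdh5, the endothelial cadherin, was at 586, 198 and 223 CPM in the 3 HE populations and at 101 CPM in HE-Hb, 24.4 in LMP-skewed and 5.46 in EMP-skewed progenitors. The blood progenitor list of 10 genes summed to 646, 447 and 305 CPM in the 3 HE populations. It summed to 1405, 1147 and 972 CPM in HE-Hb, LMP-skewed and EMP-skewed progenitors. Within that list Ptprc, which encodes CD45, was at 0.601, 0 and 0 CPM in the HE populations and at 11.9, 18.3 and 5.46 CPM in the others. Not every gene of it went this way. Gata2 was at 102 CPM in HE-AGM and at 62.3, 12.2 and 28.7 CPM in the same 3 groups. Spn was at 9.01 CPM in HE-AGM and at 1.52 and 1.37 CPM in LMP-skewed and EMP-skewed progenitors. Klf1, a defining erythroid gene, was at 0 outside HE-AGM (2.1 CPM), and Gata1 reached 12.3 CPM in EMP-skewed progenitors and at most 0.901 CPM in the other 5 populations. The whole erythroid list of 8 genes summed to 190 CPM in HE-AGM, where the highest cell held 9444 CPM, and to 41.5, 24.5, 5.3, 30.5 and 21.8 CPM in HE-YSA, HE-YSP, HE-Hb, LMP-skewed and EMP-skewed cells.

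Gfi1 marked HE-AGM and HE-YSA at nearly the same level, was low in HE-YSP and HE-Hb, and gave no count in either progenitor group. The gene lies on the minus strand, and its longest transcript, Gfi1-201, spans chr5:107716657-107724343 (GRCm38). Its level was 103 CPM (88.9 to 118) in early and 115 CPM (97.9 to 134) in late HE-AGM, 99.9 CPM (79.7 to 124) in early and 121 CPM (101 to 144) in late HE-YSA. These 4 clusters could not be ordered, since their intervals overlapped. Early and late HE-YSP held 16.5 CPM (8.99 to 27.6) and 23.1 CPM (13.9 to 36.1), and HE-Hb 11.9 CPM (7.07 to 18.8), which overlapped one another and lay below those 4 clusters. LMP-skewed and EMP-skewed progenitors held 0 counts in 17 and 20 cells, which allows up to 4.57 and 4.1 CPM (3 counts of the total). The 3 nanopore runs gave 88.6, 93.7 and 128 CPM in HE-AGM, 87.3, 97.5 and 144 CPM in HE-YSA, and 21, 15.6 and 21.4 CPM in HE-YSP, so that HE-YSP was the lowest of the 3 in every run. By cell, Gfi1 ran from 0 over a median of 58.1 to 432 CPM in HE-AGM and from 0 over 79.6 to 411 CPM in HE-YSA, and the median was 0 in HE-YSP and HE-Hb. Cells with at least 1 count were 37 of 49 in HE-AGM (75.5%, 61.1 to 86.7), 34 of 52 in HE-YSA (65.4%, 50.9 to 78), 10 of 49 in HE-YSP (20.4%, 10.2 to 34.3) and 3 of 21 in HE-Hb (14.3%, 3.05 to 36.3). With each cell thinned to 18000 counts these became 29, 33, 11 and 1 cells, and HE-YSP and HE-Hb were again the lowest.

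**Figure D1:**
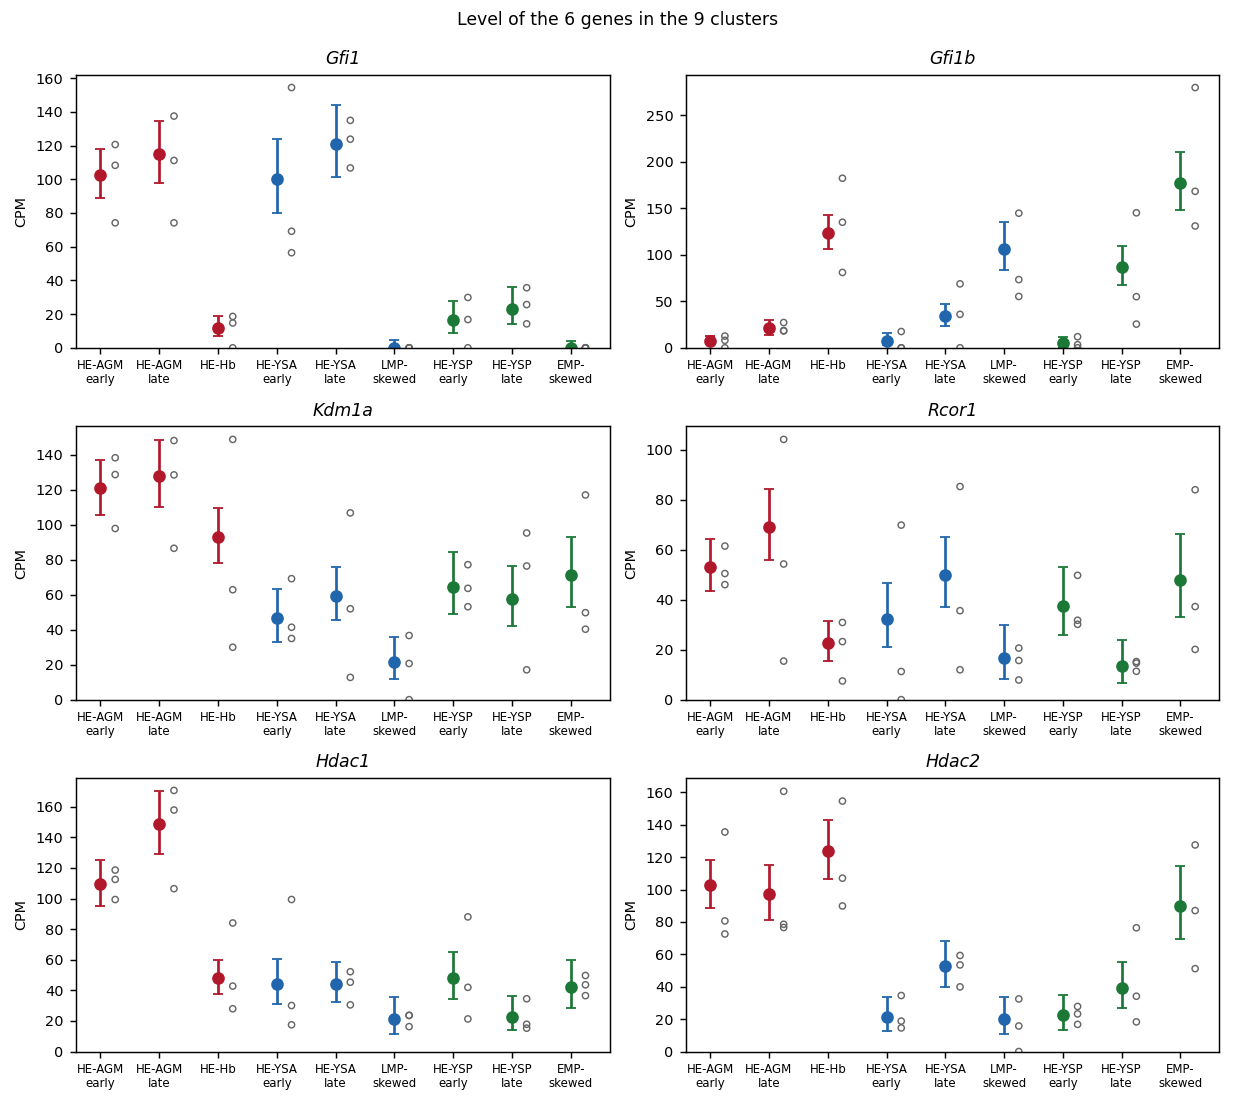
Level of the 6 genes in the 9 clusters. Filled points are CPM of the summed counts with 95% Poisson intervals, open points the 3 nanopore runs, and colours mark HE-AGM with HE-Hb (red), HE-YSA with LMP-skewed (blue) and HE-YSP with EMP-skewed progenitors (green). Gfi1 stood at 99.9 to 121 CPM in HE-AGM and HE-YSA and at 0 in both progenitor groups, where Gfi1b stood at 107 and 177 CPM.

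Because the sort used a reporter of the Gfi1 locus, the Gfi1 level between sorts describes the gate. In HE-YSA 47 of 52 kept cells carried Gfi1 in their library name and 4 carried Runx1, whereas in HE-YSP 13 carried Gfi1 and 36 Runx1. HE-YSP cells named Gfi1 held 59.5 CPM of Gfi1 (38.9 to 87.2, 6 of 13 cells with a count), and those named Runx1 held 5.67 CPM (2.28 to 11.7, 4 of 36 cells). In HE-YSA the cells named Gfi1 held 120 CPM (34 of 47 cells) and the 4 named Runx1 held 0 counts. The sort therefore moved with part of the gap. With Gfi1-named yolk sac cells only, the log2 ratio of Gfi1 was 1.01 for HE-YSA over HE-YSP and 0.86 for HE-AGM over HE-YSP, against 2.50 and 2.45 with all cells. None of the 5 LMP-skewed and 2 EMP-skewed cells that carried Gfi1 in their library name gave a count of Gfi1. In HE-AGM most library names gave no sort, and the 5 cells named Gfi1 all had counts.

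**Figure D2:**
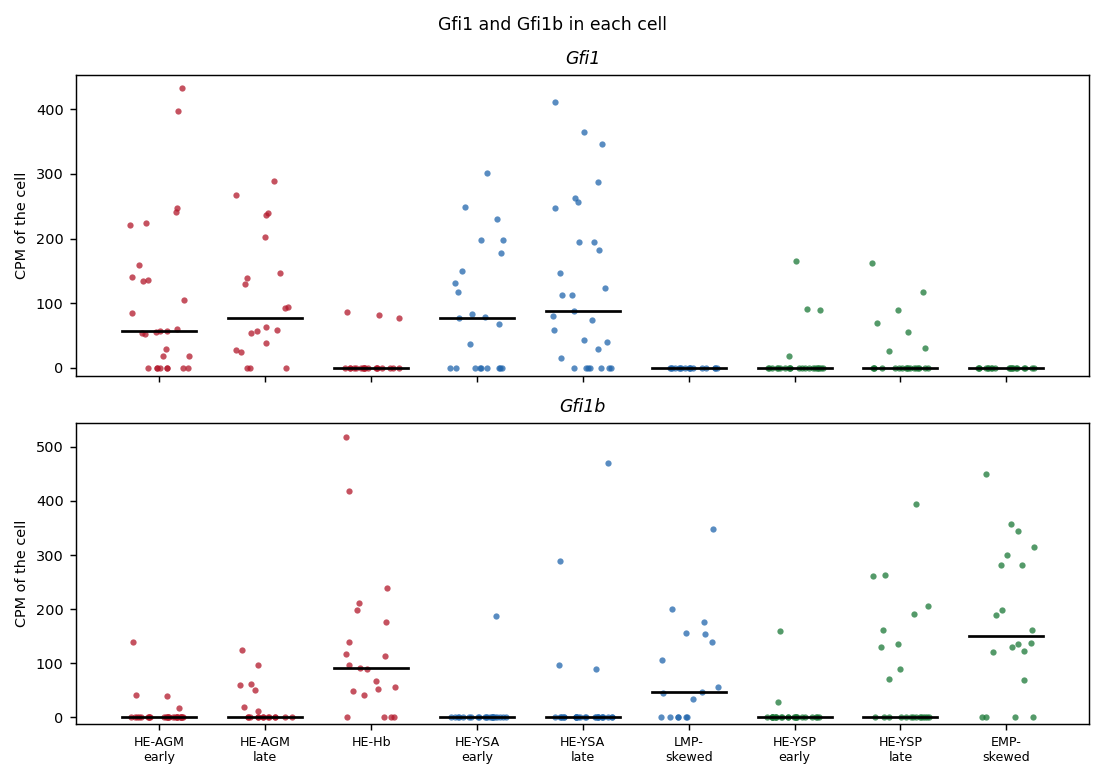
Gfi1 (top) and Gfi1b (bottom) in every kept cell, in CPM of that cell, with the median of each cluster as a bar. Gfi1 was spread from 0 to 432 CPM in HE-AGM and to 411 CPM in HE-YSA, whereas Gfi1b was above 0 in most cells of HE-Hb (17 of 21) and of EMP-skewed progenitors (16 of 20).

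Gfi1b took the opposite course: it was low in the early HE clusters and highest in HE-Hb and the progenitors. The main transcript, Gfi1b-204, spans chr2:28609450-28621982 on the minus strand. Early HE-AGM, HE-YSA and HE-YSP held 7.74 CPM (4.33 to 12.8), 7.14 CPM (2.62 to 15.5) and 4.7 CPM (1.28 to 12) and could not be ordered. Late HE-AGM and late HE-YSA followed with 20.9 CPM (14 to 30) and 33.8 CPM (23.7 to 46.8). Late HE-YSP at 86.5 CPM (67.5 to 109), LMP-skewed progenitors at 107 CPM (83.1 to 135) and HE-Hb at 123 CPM (106 to 142) overlapped their neighbours in this order, and EMP-skewed progenitors stood above all at 177 CPM (148 to 211). The values of HE-YSA rested on few cells: its 42 counts lay in 5 of 52 cells, 19 of them in 1 cell. Run 1 gave 0 counts of Gfi1b in HE-YSA, run 2 18.7 CPM and run 3 44.8 CPM. EMP-skewed progenitors held 168, 280 and 131 CPM in the 3 runs and HE-Hb 135, 182 and 81 CPM, so these groups were above the early HE clusters in each run.

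From the early to the late cluster Gfi1b was higher in each HE population, while Gfi1 showed no change past counting error. The log2 ratio of late over early was 1.43 (0.48 to 2.44) in HE-AGM, 2.24 (0.98 to 3.78) in HE-YSA and 4.20 (2.78 to 6.12) in HE-YSP for Gfi1b. For Gfi1 it was 0.16 (-0.14 to 0.47), 0.28 (-0.13 to 0.69) and 0.49 (-0.58 to 1.60), so each interval held 0. The sort mix also changed in the yolk sac. Gfi1-named cells were 18 of 23 in early and 29 of 29 in late HE-YSA. In HE-YSP they were 3 of 25 in the early and 10 of 24 in the late cluster. The part of this mix in the ratios was not tested. Among all genes with at least 20 counts in the 2 clusters together, 9.21%, 11.6% and 13.7% were more than 2-fold higher in the late cluster of HE-AGM, HE-YSA and HE-YSP, and 17.6%, 11.9% and 13.1% more than 2-fold lower. Gfi1b was thus among the higher genes in all 3, and in HE-YSP it was above early cells in each run. The log2 ratios were 2.45 in run 1, with 3 counts in place of 0 in the early cluster, 1.09 in run 2 and 5.45 in run 3. In HE-YSA the early cluster held 6 counts, all in 1 cell, so its ratio rested on that cell.

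Into the progenitor-like clusters the pair diverged further, but in the yolk sac the sort mix changed at the same step. Gfi1-named cells were 29 of 29 in late HE-YSA and 5 of 17 in LMP-skewed progenitors. They were 10 of 24 in late HE-YSP and 2 of 20 in EMP-skewed progenitors. The other cells of these groups were named Runx1, and the part of the sort in the ratios was not tested. Gfi1 was 9.65-fold lower in HE-Hb than in late HE-AGM (log2 ratio -3.27, -4.06 to -2.56). With the 0 counts of the progenitors set to a floor of 3 over the population, it was 26.5-fold lower in LMP-skewed progenitors than in late HE-YSA. On the same floor it was 5.65-fold lower in EMP-skewed progenitors than in late HE-YSP. Late HE-YSP had only 19 counts of it, short of the 20 counts set for the shares of all genes. With counting error on both sides the upper limits of these 2 log2 ratios were -4.41 and -2.06. Gfi1b was 5.91-fold, 3.15-fold and 2.05-fold higher in the same comparisons (log2 ratios 2.56, 1.66 and 1.04). Among all genes, 10.3%, 10.7% and 8.49% were more than 2-fold higher in HE-Hb, LMP-skewed and EMP-skewed cells, and 15.8%, 16.6% and 12.7% more than 2-fold lower. Both genes moved in their stated direction in each run between HE-Hb and late HE-AGM. In HE-Hb 10 of the 18 Gfi1 counts lay in 1 cell, and the log2 ratio without it was -4.32. For EMP-skewed progenitors over late HE-YSP the Gfi1b ratio was 1.61 and 3.46 in runs 1 and 2 and -0.15 in run 3, so 1 run went against it. LMP-skewed progenitors held less Gfi1b than EMP-skewed progenitors, with a log2 ratio of -0.74 (-1.18 to -0.31) and per-run values of -1.20, -2.34 and 0.14.

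Markers of megakaryocytes, which also express Gfi1b, were summed for the same populations. The list of 6 such genes summed to 14.7, 36.2 and 127 CPM in HE-AGM, HE-YSA and HE-YSP and to 234, 346 and 459 CPM in HE-Hb, LMP-skewed and EMP-skewed progenitors. Per cell the sum ran from 0 to 265, 383, 541, 599, 1132 and 803 CPM in the same order. From 2 to 4 of the 6 genes had a count of at least 1 in any of these populations, Gp5 was at 0 in all 6, and Gp1bb was at 0 in all but HE-Hb and EMP-skewed progenitors. From the early to the late cluster the sum went from 18.1 to 10.1 CPM in HE-AGM, where Gfi1b was higher, from 7.14 to 59.2 CPM in HE-YSA and from 96.4 to 160 CPM in HE-YSP. For EMP-skewed progenitors over late HE-YSP 1 of 2 genes tested was more than 2-fold higher and 1 lower. The part of such cells in the Gfi1b level was not tested.

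Taken as a pair, the balance of the 2 factors shifted from Gfi1 to Gfi1b. Of the counts of both genes together, Gfi1b made up 10.9% (8.05 to 14.4) in HE-AGM cells, 16.5% (12.1 to 21.6) in HE-YSA cells, 69.4% (59.8 to 77.9) in HE-YSP cells, 91.2% (86.4 to 94.7) in HE-Hb and 100% in both progenitor groups (at least 94.9% and 97.2%). It went from 7.01% of the pair in early to 15.3% in late HE-AGM, from 6.67% to 21.8% in HE-YSA, and from 22.2% to 78.9% in HE-YSP. The sort moved with this share: HE-YSP cells named Gfi1 held 26 counts of each gene. Those named Runx1 held 7 of Gfi1 and 49 of Gfi1b. Cells named Gfi1 were 47 of 52 in HE-YSA, 13 of 49 in HE-YSP, 5 of 17 in LMP-skewed and 2 of 20 in EMP-skewed progenitors. The part of the sort was not tested. At least 1 count of each gene was found in 7 HE-AGM cells (6 of them late), 3 HE-YSA cells and 3 HE-YSP cells, and in none of the other groups. In late HE-AGM 6 of the 7 cells with Gfi1b also held Gfi1, which 17 of 20 cells did, and in late HE-YSP 3 of 6 cells with Gfi1 held Gfi1b. HE-Hb held 3 cells with Gfi1 alone and 17 with Gfi1b alone. Thinned to 18000 counts, late HE-AGM held 4 cells with both and HE-Hb again none. A cell without a count may still hold the transcript, so cells with both may be undercounted.

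**Figure D3:**
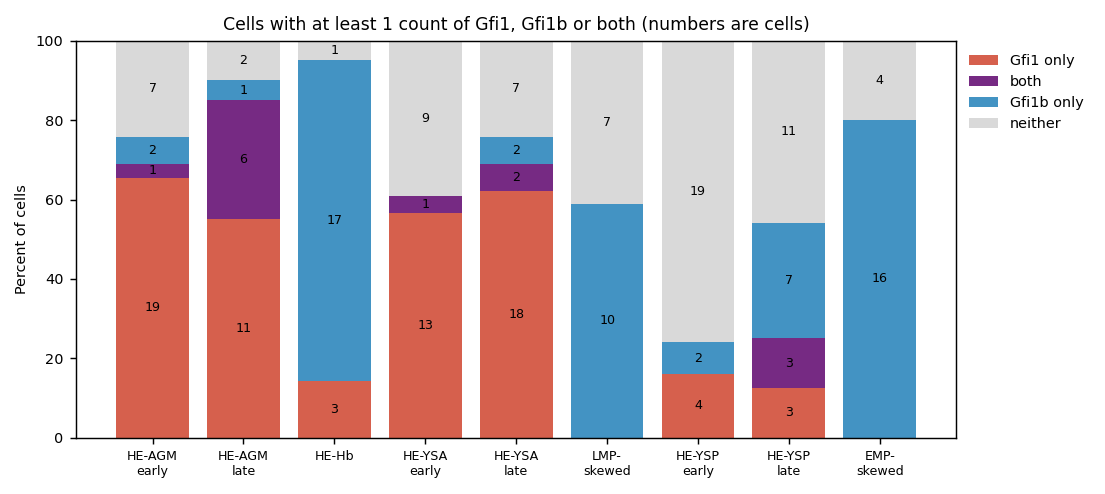
Percent of the cells of each cluster with at least 1 count of Gfi1 only, of both genes, of Gfi1b only or of neither, with the number of cells in each field. Both genes were seen in 6 late HE-AGM cells and in at most 3 cells of any other cluster, and the Gfi1 fields are empty in the progenitors.

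The 4 complex subunits formed a different pattern, in which HE-AGM stood above the yolk sac HE populations. Kdm1a (LSD1, the demethylase of the complex) held 124 CPM (112 to 136) in HE-AGM, 53.5 (43.6 to 65) in HE-YSA and 61 (49.7 to 74.1) in HE-YSP. Hdac1, a class I deacetylase, held 126 CPM (114 to 139), 44.2 (35.2 to 54.6) and 35.7 (27.4 to 46.2). Hdac2, its close paralog, held 100.3 CPM (89.8 to 112), 38.8 (30.5 to 48.8) and 30.5 (22.7 to 40.1). For these 3 genes no run of HE-AGM was below the same run of HE-YSA or HE-YSP. Rcor1, the scaffold, was closer, at 59.8 CPM (51.8 to 68.7), 42 (33.3 to 52.3) and 25.7 (18.6 to 34.6). The share of cells with a count went the same way, at 42 of 49, 19 of 52 and 24 of 49 cells for Kdm1a and 43 of 49, 20 of 52 and 17 of 49 cells for Hdac2. Thinned to 18000 counts it was 38, 22 and 21 cells for Kdm1a and 34, 16 and 16 cells for Hdac2.

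As log2 ratios of HE-AGM over HE-YSA these differences were 1.21 (0.89 to 1.54) for Kdm1a, 0.51 (0.13 to 0.90) for Rcor1, 1.51 (1.18 to 1.87) for Hdac1 and 1.37 (1.00 to 1.75) for Hdac2. Gfi1 stood at -0.05 (-0.30 to 0.20) and Gfi1b at -0.74 (-1.38 to -0.09). So 3 of the 6 members were more than 2-fold higher and none more than 2-fold lower, where 32.7% of all genes were more than 2-fold higher and 13.3% lower, with a median log2 ratio of 0.32. Over HE-YSP the ratios were 1.02 (0.70 to 1.35), 1.22 (0.73 to 1.73), 1.82 (1.42 to 2.23) and 1.72 (1.29 to 2.17) for the subunits, 2.45 (1.93 to 3.01) for Gfi1 and -1.76 (-2.33 to -1.21) for Gfi1b. There 5 of 6 members were more than 2-fold higher and 1 lower, against 35% and 14.5% of all genes and a median of 0.39. Of the 6 ratios, that of Hdac1 alone stayed past 2-fold under every alternative tried. Gfi1 and Hdac2 were at 0.86 and 0.70 with Gfi1-named yolk sac cells only, Kdm1a and Rcor1 at 0.68 and 0.88 with median-ratio size factors, Rcor1 at 0.78 with E10.5 yolk sac cells only, and Gfi1b at -0.70 without run 3. The AGM cells also had higher totals and more genes: thinned to 18000 counts, a HE-AGM cell held a median of 3997 genes with a count, a HE-YSA cell 3468 and a HE-YSP cell 3434. The part of this in the ratios was not tested. Of the subunits, Kdm1a and Rcor1 varied most between runs for HE-AGM over HE-YSA, at 0.43, 0.95 and 2.57 and at 0.05, 2.41 and 0.51. Without run 3 the Kdm1a ratios were 0.63 over HE-YSA and 0.52 over HE-YSP, below 2-fold. For Gfi1b the single HE-YSA cell with 19 counts decided the ratio, which was 0.08 without it. Run 1, with 3 counts in place of 0 in HE-YSA, gave 2.07 where runs 2 and 3 gave -1.24 and -1.85.

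Between the yolk sac populations the subunits stayed within 2-fold when all cells were used. HE-YSA over HE-YSP gave log2 ratios of -0.19 (-0.60 to 0.22) for Kdm1a, 0.31 (-0.20 to 0.80) for Hdac1 and 0.35 (-0.19 to 0.89) for Hdac2, whose intervals held 0, and 0.71 (0.15 to 1.28) for Rcor1. The runs of Rcor1 gave 1.32, -1.98 and 0.83. With all cells the GFI factors were the members past 2-fold, Gfi1 at 2.50 (1.97 to 3.08) and Gfi1b at -1.03 (-1.61 to -0.46), where 12% of all genes were more than 2-fold higher and 9.65% lower. With each cell left out in turn the Gfi1b ratio ran from -1.84 to -0.69, and it was -0.66 without run 1 and -0.61 with E10.5 cells only, so that it did not stay past 2-fold. Run 2 gave 0.06. With Gfi1-named cells only (47 against 13), Rcor1 stood at 1.49 and Gfi1 at 1.01, and Hdac2 fell below 0.

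**Figure D4:**
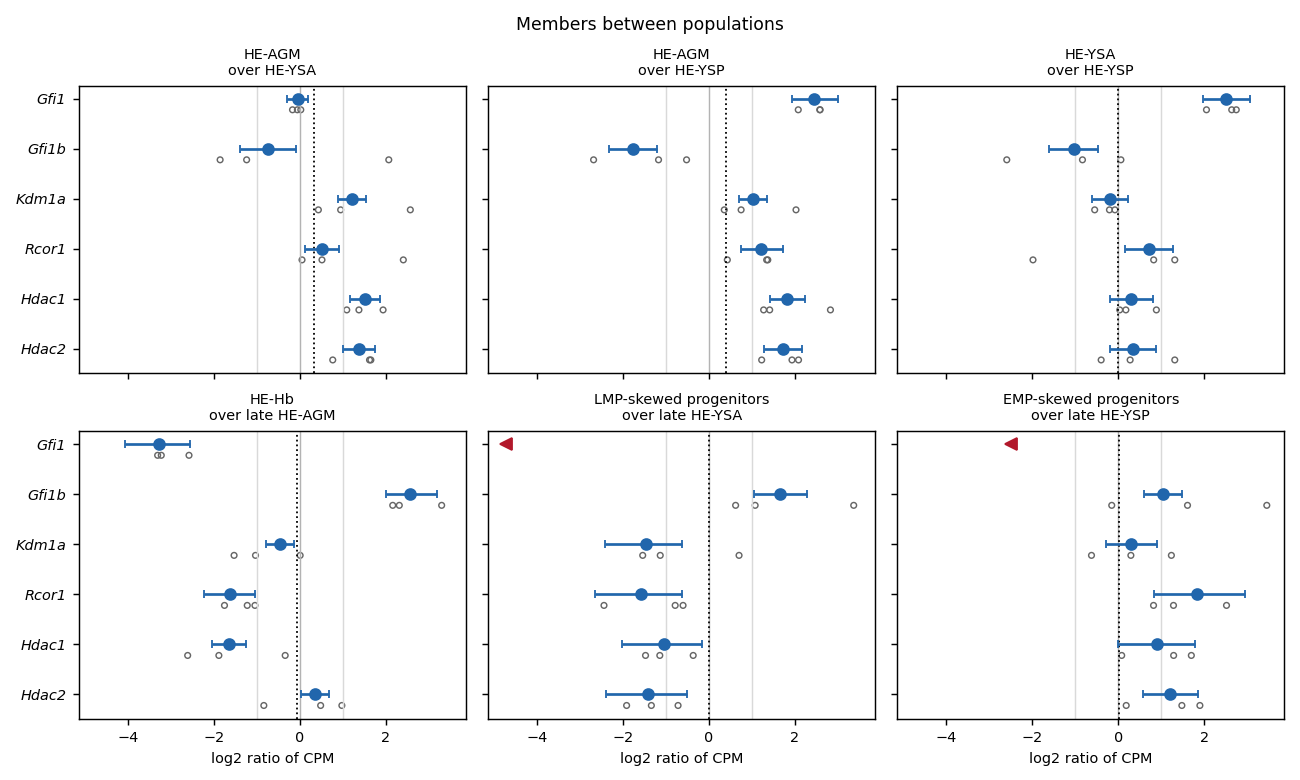
Log2 ratios of CPM of the 6 genes in 6 comparisons. Points are the ratio with its 95% interval for counting error, and open points the 3 runs. Triangles are ratios with 3 counts in place of 0 for a population. A run with 0 counts in either population is drawn with the same floor, and the dotted line is the median of all genes. Kdm1a, Hdac1 and Hdac2 lay above 1 for HE-AGM over both yolk sac populations. Gfi1 lay at -3.27 in the lower left panel and, with that floor, at -4.73 in the lower middle panel.

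Towards progenitors the subunits did not move together. In LMP-skewed progenitors all 4 were more than 2-fold lower than in late HE-YSA, with log2 ratios of -1.47 (-2.42 to -0.62) for Kdm1a, -1.57 (-2.66 to -0.62) for Rcor1, -1.05 (-2.03 to -0.16) for Hdac1 and -1.41 (-2.40 to -0.52) for Hdac2, where 16.6% of all genes were more than 2-fold lower and 10.7% higher. These rest on 11 to 14 counts per gene in the progenitors, run 3 gave 0.70 for Kdm1a, and the 5 Gfi1-named progenitors gave -0.056 for Hdac1. In EMP-skewed progenitors Rcor1 at 1.83 (0.82 to 2.96) and Hdac2 at 1.21 (0.58 to 1.87) were more than 2-fold higher than in late HE-YSP (8.49% of all genes were), Hdac1 was at 0.89 (0.00 to 1.78) and Kdm1a at 0.31 (-0.29 to 0.91). Of the 35 Rcor1 counts in EMP-skewed progenitors 15 lay in 1 cell. With E10.5 cells only (6 against 7), Hdac1 was at -0.90 and Hdac2 at 0.32, and with Gfi1-named cells only (2 against 10) Rcor1 turned to -0.71. Set against each other, LMP-skewed progenitors held less of all 4 than EMP-skewed progenitors. The ratios were -1.74 (-2.70 to -0.86) for Kdm1a and -1.51 (-2.64 to -0.50) for Rcor1. Those of Hdac1 and Hdac2 were -0.98 (-2.01 to -0.04) and -2.19 (-3.17 to -1.31). More than 2-fold lower were 3 of these 4, against 9.8% of all genes, while 9.47% were more than 2-fold higher. Run 3 gave 0.04 for Rcor1. Cells of E10.5 were 15 of 17 LMP-skewed and 6 of 20 EMP-skewed progenitors, and the part of stage was not tested.

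HE-Hb held less Rcor1 and Hdac1 than late HE-AGM but not less Hdac2. Rcor1 was 3.07-fold lower, at 22.5 against 69 CPM, and Hdac1 3.11-fold lower, at 47.9 against 149 CPM, and both were lower in each run. Thinned to 18000 counts per cell, the Rcor1 log2 ratio was -0.53 and so no longer past 2-fold. Kdm1a was at 92.7 against 128 CPM (log2 ratio -0.47, -0.79 to -0.14), and Hdac2 at 124 against 97.1 CPM (0.35, 0.02 to 0.68, and -0.21 without run 3). The 35 Rcor1 counts of a single cell made up 36.5% of those in late HE-AGM. From early to late HE the subunits stayed within 2-fold in HE-AGM, at 0.08 for Kdm1a, 0.38 for Rcor1, 0.44 for Hdac1 and -0.08 for Hdac2. In HE-YSA Hdac2 was the exception at 1.30 (0.51 to 2.15). In HE-YSP Rcor1 at -1.49 (-2.63 to -0.46) and Hdac1 at -1.08 (-1.92 to -0.24) were lower in the late cluster, in each run. The sort split these values: HE-YSP cells named Runx1 held 51 CPM of Hdac1 in the early and 6.72 CPM in the late cluster, and those named Gfi1 28.6 CPM (3 cells) and 46.4 CPM (10 cells).

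The long-read estimates divide the counts of a gene among its transcripts, though not all similar forms could be separated. The study judged the coverage of these long reads too low for a robust analysis of isoforms, so the shares are descriptions. For Rcor1 the longer of 2 coding transcripts took a larger share in HE-AGM than in the yolk sac. Rcor1-201 (chr12:111039351-111115901, 5684 bases, 1440 of them coding, with a last exon of 4028 bases) and Rcor1-202 (chr12:111039798-111113384, 2720 bases, 1146 coding, last exon 1511 bases) share the plus strand and made up all counts of the gene. The long form took 87.9% (82.6 to 92.1) of 199 counts in HE-AGM and 91.2% (76.3 to 98.1) of 34 in HE-Hb. In HE-YSA it took 46.2% (35 to 57.8) of 80 counts, in HE-YSP 30.2% (17.2 to 46.1) of 43, in LMP-skewed progenitors 36.4% of 11 and in EMP-skewed progenitors 54.3% (36.6 to 71.2) of 35. HE-AGM and HE-Hb thus lay above every yolk sac population, and the intervals of HE-AGM and HE-YSA did not overlap. By cell, Rcor1-201 was the higher form in 23 HE-AGM cells and Rcor1-202 in 4, against 6 and 9 HE-YSA cells and 4 and 11 HE-YSP cells. Within HE-YSA it went from 11.1% (2.35 to 29.2) of 27 counts in the early to 64.2% (49.8 to 76.9) of 53 in the late cluster. In HE-AGM the 3 runs gave 88.5%, 92% and 86.7%, in HE-YSA 51.3%, 0% and 44.7% of 39, 3 and 38 counts, and in HE-YSP 0%, 63.6% and 31.6% of 13, 11 and 19 counts.

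Transcript length moved with this shift. Transcripts of at least 4000 bases took a median of 6.81% of all counts in a HE-AGM cell and 4.65% in HE-Hb, against 2.59% in HE-YSA, 2.59% in HE-YSP, 1.51% in LMP-skewed and 1.96% in EMP-skewed cells. Even the lowest HE-AGM cell, at 4.22%, was above the medians of the yolk sac groups. The part of this difference between cDNA projects in the Rcor1 shares was not tested.

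For Hdac1 the share of the coding transcript was read in each population. The coding transcript Hdac1-201 (chr4:129516104-129542713, minus strand) took 92.7% (89.7 to 94.9) of the counts in HE-AGM and 95.5% (88.3 to 99.1) in HE-Hb. It took 67.7% (56.8 to 77.6) in HE-YSA, 71.9% (58.6 to 82.5) in HE-YSP, 63.8% in LMP-skewed and 64.5% in EMP-skewed progenitors. Within HE-YSA the late cluster was at 52.9% and the early cluster at 86.5%, where the interval of its retained-intron share (13.5%, 4.54 to 28.8) overlapped that of early HE-AGM (8.71%, 5.11 to 13.1). The rest lay on transcripts annotated as retained introns, such as a form of 810 bases with 32.3% in HE-YSA and 35.5% in EMP-skewed progenitors against 2.08% in HE-AGM. Over all genes the retained-intron transcripts took a median of 6.04% of counts in HE-AGM and 5.16% in HE-YSA cells. Hdac1-201 has 2038 bases, and the share of long transcripts and the cDNA project also differed between AGM and yolk sac. Their part in the Hdac1 shares was not tested. With coding transcripts only, the log2 ratio of Hdac1 in HE-AGM over HE-YSA was 1.97 in place of 1.51. The pseudogene Hdac1-ps held at most 3.36 CPM in any cluster. Hdac2-201 took from 85.4% to 100% of the Hdac2 counts in every population.

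**Figure D5:**
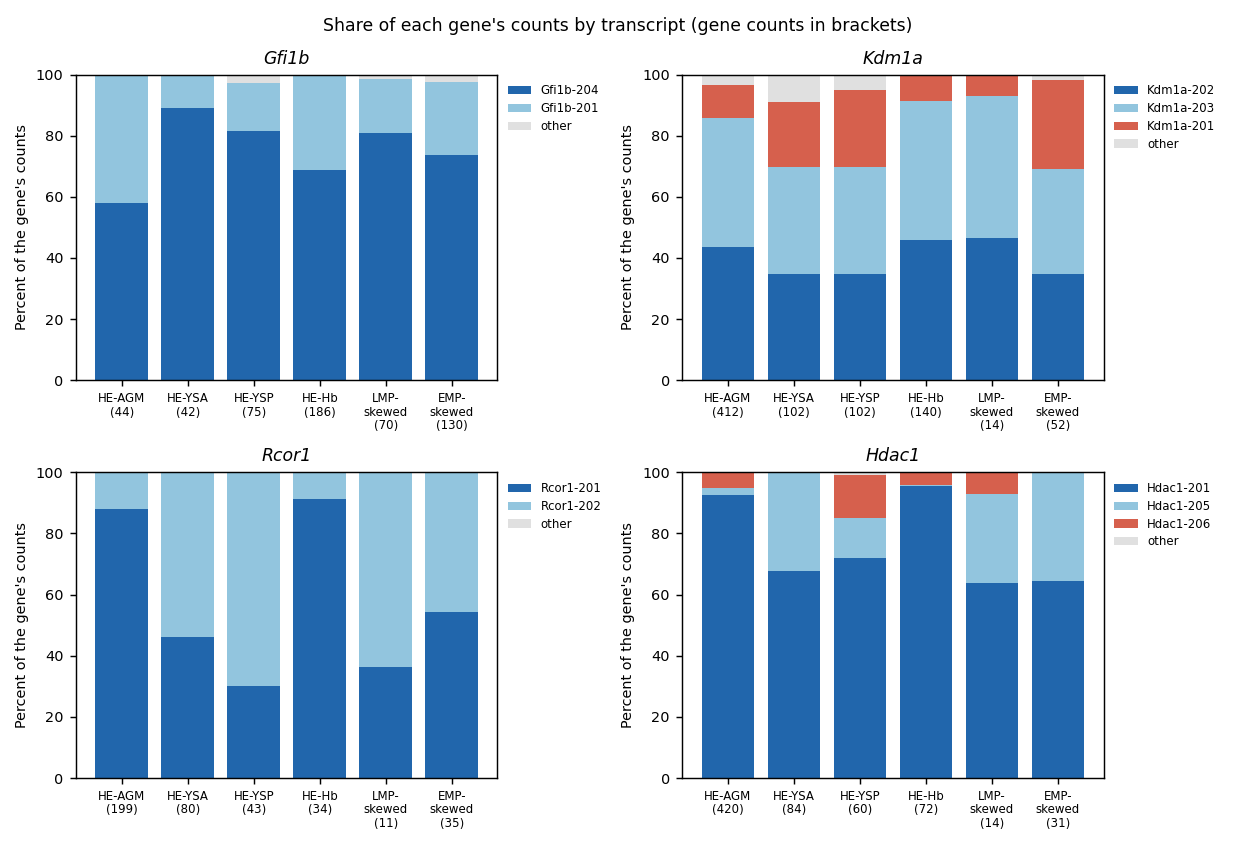
Percent of the counts of Gfi1b, Kdm1a, Rcor1 and Hdac1 on each named transcript in the 6 populations, with the summed gene counts in brackets. Rcor1-201 took 87.9% and 91.2% in HE-AGM and HE-Hb and 30.2% to 54.3% in the yolk sac groups.

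The transcripts of Gfi1b and Kdm1a differ at their ends and by short coding stretches, shown here to make clear what the counts could separate. Gfi1b-204 holds 99 bases that Gfi1b-201 lacks (chr2:28611585-28611683, minus strand), the 5′ part of a coding exon of 265 bases, which add 33 codons without a stop. Kdm1a-202 holds an exon of 60 bases that Kdm1a-203 skips (chr4:136582040-136582099, minus strand), which adds 20 codons. Both are given 5′ to 3′ from GENCODE M21 transcripts (GRCm38), the stretch in capitals between 15 flanking bases.
Gfi1b-204: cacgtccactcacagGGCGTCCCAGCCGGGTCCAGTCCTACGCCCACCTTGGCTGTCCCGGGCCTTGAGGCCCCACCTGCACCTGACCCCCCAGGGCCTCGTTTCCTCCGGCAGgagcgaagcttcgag
Kdm1a-202: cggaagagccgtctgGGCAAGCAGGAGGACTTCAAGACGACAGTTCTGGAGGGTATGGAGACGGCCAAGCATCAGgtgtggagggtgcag
Gfi1b-201 spans chr2:28609455-28621945 and Gfi1b-204 chr2:28609450-28621982, so a higher estimate of Gfi1b-204 does not by itself show that the 99 bases were read. Gfi1b-204 led: it was the higher form in 31 of 71 cells with any estimate above 0, equal to Gfi1b-201 within 0.01 counts in the other 40, and lower in none. It took 58% (41 to 71.7) of the HE-AGM counts, 89.2% (74.4 to 96) of those in HE-YSA, 81.4% (70.7 to 89.4) in HE-YSP, 68.8% (61.6 to 75.4) in HE-Hb, 80.9% in LMP-skewed and 73.8% in EMP-skewed progenitors. In HE-AGM the forms were equal in 10 of 11 cells, so its lower share rested on cells in which the forms were not separated. For Kdm1a the forms with and without the 60 bases were equal in 119 of 120 cells, and for Gfi1 the transcripts Gfi1-201 and Gfi1-203 were equal in 86 of 87 cells. Where the estimates are equal the forms are not separated, so inclusion of the Kdm1a exon and the choice between the Gfi1 forms could not be read from these counts. The separate short form Kdm1a-201 (2051 bases) took 10.7% (7.87 to 14.1) in HE-AGM and 8.21% in HE-Hb, against 21.6% (14 to 30.8) in HE-YSA, 25.5% (17.4 to 35.1) in HE-YSP and 28.8% (17.1 to 43.1) in EMP-skewed progenitors, but 7.14% (0.181 to 33.9) of 14 counts in LMP-skewed progenitors. In HE-YSA run 1 gave 32.1%, while runs 2 and 3 gave 10.3% and 5.88%, below the 11.4% and 8.1% of HE-AGM in the same runs. Kdm1a-202 and Kdm1a-203 are longer, at 3028 and 3008 bases. The part of transcript length and cDNA project in these shares was not tested.

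Further subunits and relatives were read from gene lists that were chosen with earlier results of these data known. Counts past 2-fold and medians were set beside those of all genes. The list of CoREST paralogs and accessory subunits had 7 of 11 genes higher and none lower in HE-AGM than in HE-YSA, with a median log2 ratio of 1.12 against 0.32 over all genes. Rcor2, a paralog of Rcor1, led at 20.7 against 4.2 CPM. Over HE-YSP 5 of 11 were higher and 1 lower, and Phf21a, which encodes the histone reader BHC80, was highest at 18.6 against 1.2 CPM (62 against 2 counts, log2 ratio 3.96, 2.05 to 7.04). Shares of these lists read against 32.7% of all genes higher over HE-YSA and 35% over HE-YSP. Of the NuRD complex, which also holds HDAC1 and HDAC2, 6 of 12 genes were higher in HE-AGM than in HE-YSA and 8 of 12 than in HE-YSP, none lower, with Mta1 at 148 against 14.2 and 19.7 CPM. Of the Sin3 complex 6 of 12 were higher and 1 lower against HE-YSA, and 4 and none against HE-YSP, a share near that of all genes, and its summed level was 877 CPM in HE-AGM against 858 in HE-YSA and 914 in HE-YSP. Factors known to bind GFI1 had 5 of 7 and 4 of 7 genes higher, led against HE-YSA by Zbtb17, which encodes the GFI1 partner MIZ1, at 49.9 against 7.87 CPM. The list of class I HDAC relatives, which holds the deacetylases Hdac3 and Hdac8, had 3 of 5 tested genes higher in both comparisons. Hdac3 itself stood at -0.23 and 0.30 and Gps2 at -0.77 and -0.24. The differences in total counts, gene number and transcript length given above moved with these lists, and their part was not tested.

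Towards progenitors the counts of these lists read against 10.7% higher and 16.6% lower of all genes in LMP-skewed, 8.49% and 12.7% in EMP-skewed and 10.3% and 15.8% in HE-Hb cells. In LMP-skewed progenitors over late HE-YSA, accessory subunits had 1 gene higher and 1 lower of 5, NuRD 2 and 3 of 12 and Sin3 0 and 2 of 9, with medians of -0.19, -0.02 and -0.47. Kdm1b, the paralog of Kdm1a, was higher there at 38.1 against 11.3 CPM. In EMP-skewed progenitors over late HE-YSP the same lists had 0 and 1 of 5, 1 and 0 of 11 and 0 and 1 of 8 genes past 2-fold, and Hdac3 was at 68.3 against 20.7 CPM. In HE-Hb over late HE-AGM they had 0 and 2 of 11, 0 and 2 of 12 and 1 and 1 of 11.

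The targets of the repressors were read from 172 genes of an HE profile shared by the 3 populations that the study marked as potential GFI targets, with binding in published datasets of both GFI1 and GFI1B. The study chose this profile on short-read libraries of cells that include these, by their change towards endothelium or blood, so the list is not independent evidence of its direction. In HE-Hb over late HE-AGM 3 of 149 genes were more than 2-fold higher and 81 lower (54.4%), with a median of -1.15. The remaining genes of the profile had 7 of 295 higher and 101 lower (34.2%), with a median of -0.38. In LMP-skewed progenitors over late HE-YSA bound genes had 5 of 115 higher and 54 lower (47%), and the remaining genes 25 of 265 and 86 (32.5%). In EMP-skewed progenitors over late HE-YSP these were 3 of 86 and 36 (41.9%) against 15 of 241 and 74 (30.7%). The shares lower were above those of all genes, at 15.8%, 16.6% and 12.7%, for both lists. From early to late HE 61 of 165, 58 of 145 and 65 of 127 bound genes were lower in HE-AGM, HE-YSA and HE-YSP, and 10, 15 and 15 higher. Of the remaining genes of the profile 74 of 319, 61 of 290 and 94 of 283 were lower and 33, 32 and 58 higher, and of all genes 17.6%, 11.9% and 13.1% were lower. Examples of bound genes at the ends were Myzap, at 94.9 CPM in late HE-AGM and 0.662 CPM (1 count) in HE-Hb (log2 ratio -7.16, -12.5 to -4.66), and Mycn, a transcription factor that was at 30.6 CPM in early and 167 CPM in late HE-YSP. The endothelial marker list moved with them, with 7, 5 and 6 of 10 genes more than 2-fold lower and 0, 1 and 0 higher from early to late HE.

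The genes whose levels over the 9 clusters were most like those of Gfi1 were Nupr1 (Pearson r 0.96), Slc18a2 (0.95), Smtnl2, Fbln1 and Mllt3 (0.94 each), among 6007 genes with at least 200 counts on a log2(CPM + 10) scale. Nupr1, a stress-response regulator, held 429 and 699 CPM in early and late HE-AGM, 436 and 277 CPM in early and late HE-YSA, and 1.52 and 10.9 CPM in LMP-skewed and EMP-skewed progenitors. Most like Gfi1b were Mpo and Plek (0.97 each), Gpx1 and Sla (0.95 each) and Ptpn7 (0.94). Mpo, the myeloperoxidase of myeloid granules, went from 1.03 CPM in early HE-AGM to 323 CPM in HE-Hb, and Plek, a platelet kinase substrate, from 0 to 62.9 CPM. Gfi1 and Gfi1b stood at -0.72 to each other, near the end of the order at rank 5811 of 6007. The 9 points share runs, depth and cDNA projects, so these values are descriptions.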

How the data were processed

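Smart-seq2 cDNA of single cells was sequenced on a nanopore instrument, and reads were basecalled with Dorado, trimmed, cleared of chimeras and aligned to GENCODE transcripts with minimap2 (2.26 in the submitters' processing notes). The values used are estimated counts per transcript and cell, which the authors made with NanoCount and deposited without normalization. A deposited TPM table holds the same estimates scaled and was not used.

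Cells below the median library size minus 1 median absolute deviation (17595 counts) were left out, as in the study, which removed 13 of 221. Counts were summed by gene symbol and cluster and divided by the total (CPM). Gene comparisons took genes with at least 20 counts in both populations together and a 2-fold limit, and thinned values 18000 counts per cell. Intervals were exact at 95%. Each cluster was 1 sample, so no test was run.

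Named were the 6 genes, their transcripts with at least 5% of counts, the 5 genes most like Gfi1 and Gfi1b (at least 200 counts, pseudocount 10 CPM), the 2 highest and 2 lowest genes of each list, and markers; the values of 1 list gene are not reported here. Members and lists were chosen with earlier results of these data known. Alternatives were other limits, scalings, runs, sorts and stages, and leaving out cells in turn, which was added after seeing the data. Scripts were tested on simulated data. The software was matplotlib 3.10.9, pandas 2.3.3, scipy 1.17.1 and numpy 2.4.6 under Python 3.11.15.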

Additional observations from a re-analysis of the deposited data

Results flagged for a closer look

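For 3 subunits the 3 nanopore runs all moved one way in one path and all the opposite way in another, and the difference between the paths was not tested. Hdac1 had log2 ratios of 0.89 for EMP-skewed progenitors over late HE-YSP, -1.05 for LMP-skewed progenitors over late HE-YSA and -1.64 for HE-Hb over late HE-AGM. From the early to the late cluster Hdac1 stood at 0.44 in HE-AGM and at -1.08 in HE-YSP. For Rcor1 the ratios were 1.83 into EMP-skewed progenitors, -1.57 into LMP-skewed progenitors and -1.62 into HE-Hb. For Hdac2 they were 1.21 into EMP-skewed and -1.41 into LMP-skewed progenitors. Several of these ratios depended on the cells used. Hdac1 into EMP-skewed progenitors was at 0.08 in run 1 and changed sign with E10.5 cells only. Hdac1 in late over early HE-YSP and Rcor1 into EMP-skewed progenitors changed sign with Gfi1-named cells only. Rcor1 into HE-Hb was within 2-fold when thinned. The runs hold different cells of the same clusters and are not embryos.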

How the results depend on the processing

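Of 823 values of the 59 log2 ratios under alternatives, 752 stayed inside the interval for counting error, 69 left it and 2 reversed a ratio past 2-fold, and the cause was not tested. Ratios within 2-fold that changed sign, such as Gfi1b in HE-AGM over HE-YSA, are counted among the 69. No paired analysis was possible because the results come from no test. Without run 1, Gfi1b and Kdm1a in HE-AGM over HE-YSA were -1.66 and 1.78, Kdm1a in HE-AGM over HE-YSP 1.43 and Hdac1 in HE-Hb over late HE-AGM -2.31. Without run 2, Hdac2 in HE-Hb over late HE-AGM was 0.81 and Gfi1b in EMP-skewed progenitors over late HE-YSP 0.49. Without run 3, Gfi1b and Kdm1a were 0.85 and 0.63 in HE-AGM over HE-YSA, Gfi1b, Kdm1a and Hdac1 were -0.70, 0.52 and 1.33 in HE-AGM over HE-YSP, Kdm1a, Hdac1 and Hdac2 were -1.23, -1.01 and -0.21 in HE-Hb over late HE-AGM, Gfi1b and Hdac2 were 2.30 and -3.05 in LMP-skewed progenitors over late HE-YSA, and Gfi1b was 2.30 in EMP-skewed progenitors over late HE-YSP. With each cell left out in turn, Gfi1b ran from -1.11 to 0.0802 in HE-AGM over HE-YSA, from -1.84 to -0.69 in HE-YSA over HE-YSP and from 1.26 to 2.65 in LMP-skewed progenitors over late HE-YSA, and Gfi1 from -4.32 to -3.11 in HE-Hb over late HE-AGM. Thinned to 18000 counts per cell, Gfi1 and Rcor1 in HE-Hb over late HE-AGM were -4.36 and -0.53, and Gfi1b and Kdm1a in LMP-skewed progenitors over late HE-YSA 0.96 and -2.64. With coding transcripts only Hdac1 in HE-AGM over HE-YSA was 1.97, and with median-ratio size factors Kdm1a in HE-AGM over HE-YSP was 0.68. With E10.5 yolk sac cells only, Kdm1a in HE-AGM over HE-YSA was 1.69, Hdac1 in HE-YSA over HE-YSP -0.35, and Kdm1a, Hdac1 and Hdac2 in EMP-skewed progenitors over late HE-YSP 1.03, -0.90 and 0.32. With Gfi1-named yolk sac cells only, Gfi1, Rcor1 and Hdac2 in HE-AGM over HE-YSP were 0.86, 1.90 and 0.70, Gfi1, Rcor1 and Hdac2 in HE-YSA over HE-YSP 1.01, 1.49 and -0.63, Rcor1 and Hdac1 in LMP-skewed progenitors over late HE-YSA -3.39 and -0.056 (5 cells), and Gfi1b, Rcor1 and Hdac2 in EMP-skewed progenitors over late HE-YSP 2.04, -0.71 and 0.10 (2 cells). The reversals were this Rcor1 value and Hdac1 in late over early HE-YSP, at 0.70 with 10 and 3 such cells. No limit on library size and the mean of the cells' own CPM moved none of the ratios they could be computed for. Depth limits the small groups, where a subunit rests on 11 to 66 counts in the progenitors and on 11 to 47 in late HE-YSP.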
